A study of Mus musculus with 24 samples.

Results

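The genes described here are 5 members of the interleukin-6 (IL-6) cytokine family, the ligands *Il6*, *Osm* and *Lif* and the receptor subunits *Il6ra* and *Il6st*. They were taken by name, not by a cutoff on their values, from the 23394 gene IDs measured in mouse bone marrow-derived dendritic cells (BMDCs). The choice was made with earlier results of these data known. RNA-Seq was run on BMDCs from *TTP*-/- mice, which lack tristetraprolin in all cells, and from WT mice, all C57BL/6 and 9 to 12 weeks old. TTP, the product of *Zfp36*, is a protein that binds AU-rich elements in mRNA and speeds decay. Cells of both genotypes were grown from marrow with GM-CSF and harvested untreated (0 h) or after 3, 6 or 9 h with 10 ng/ml lipopolysaccharide (LPS), which gave 8 groups of 3 libraries. The libraries of a group are biological triplicates, but it is not stated whether equal replicate numbers mark a shared mouse, culture or day, and p-values reflect only how these libraries vary. A GM-CSF marrow culture is a mixture of cells, and neither genotype was sorted for these libraries as far as the sources used here state.

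Cytokines of the IL-6 family signal through receptors that share gp130, the transducing subunit encoded by *Il6st*. IL-6 first binds its own receptor subunit, encoded by *Il6ra*, oncostatin M (*Osm*) and leukemia inhibitory factor (*Lif*) bind gp130 together with a partner chain, and the assembled receptors activate JAK kinases and STAT3. In myeloid cells LPS is a known inducer of *Il6*, and the mRNAs of many cytokines carry AU-rich elements in their 3′ untranslated region (UTR), where TTP binds the core UAUUUAU.

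The members lie at 4 places in the mouse genome (GRCm38, GENCODE release M21). *Il6* (ENSMUSG00000025746) spans chr5:30013114-30019981 on the plus strand. *Osm* (ENSMUSG00000058755, chr11:4236420-4241026) and *Lif* (ENSMUSG00000034394, chr11:4257557-4272514) are neighbours on the plus strand of chromosome 11, with 16530 bases between them. *Il6ra* (ENSMUSG00000027947) lies on the minus strand at chr3:89864059-89913196 and *Il6st* (ENSMUSG00000021756) on the plus strand at chr13:112464070-112510086. Another annotated gene overlaps *Il6ra*, the antisense gene *Gm42809*, which has no row in the tables.

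Copies of the TTP core, written as DNA (TATTTAT, on the transcript strand, overlapping copies counted), were found in the 3′ UTRs of the 3 ligands. Windows around these copies, except the last copy in *Lif*, whose window overlaps the one before it, are given because the ligand and receptor mRNAs differ in them, with the core in capitals, 30 bases around a site or a pair of sites, 5′ to 3′, as read from the GENCODE transcripts:
*Il6*, chr5:30019728-30019757, plus strand: tttatgattgaTATTTATtatttttatgaa
*Osm*, chr11:4240585-4240614, plus strand: gcaagacacttTATTTATccgaatgtcagc
*Osm*, chr11:4240945-4240974, plus strand: ttttaTATTTATaaggccTATTTATaatgt
*Lif*, chr11:4270477-4270506, plus strand: gtcTATTTATtactatgtccTATTTATatt
*Lif*, chr11:4272039-4272068, plus strand: aaaggggccttTATTTATtatttaaaactt
*Lif*, chr11:4272402-4272431, plus strand: cagattattttTATTTATtcaatgtcatat
*Il6* had 1 copy in a 3′ UTR of 427 bases, *Osm* 3 in 1017 bases and *Lif* 5 in 3180 bases, and 2 of the copies in *Lif* extended to the longer core TTATTTATT. No TATTTAT was found in the 3′ UTR of *Il6ra* (1837 bases) or *Il6st* (5641 bases), although that of *Il6st* held 9 copies of the shorter ATTTA. Of the 6855 genes tested below that have an annotated 3′ UTR, 26.2% had at least 1 TATTTAT, 3.12% had 3 or more, 0.525% had 5 or more, and 6.7% had TTATTTATT. The median length of these UTRs was 951 bases. A match in sequence is a description of the annotated mRNA, not a measured binding site.

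**Figure D1:**
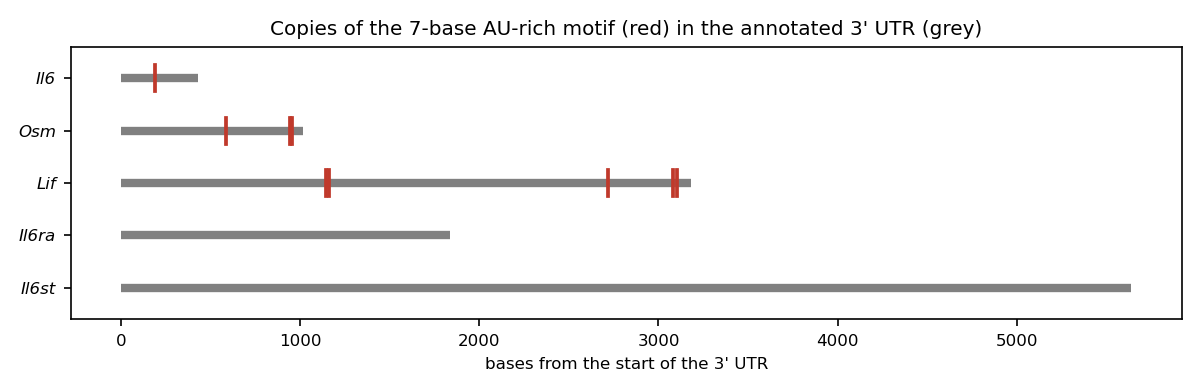
Positions of TATTTAT (vertical ticks) along the annotated 3′ UTR of each member, in bases from the start of the UTR. *Il6* has 1 tick, *Osm* 3 and *Lif* 5, and the UTRs of *Il6ra* and *Il6st* have none.

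Each library had between 19966787 and 25553953 reads assigned to genes (median 22560085). *Zfp36* was lower in every *TTP*-/- than in every WT library of the same time (log2 fold change -1.11, -0.29, -0.50 and -0.46 before LPS and at the 3 later times, adjusted p = 0.000847, 0.0380, 0.0581 and 0.00728 from limma, and 0.0232 at 6 h with the replicate number as a block). The 3 h call was lost with this block (adjusted p = 0.0859), after rescaling to TPM (0.111) and in 5 of 6 cases of leaving out 1 library. The libraries farthest from their group mates were WT replicate 1 at 6 h, *TTP*-/- replicate 3 at 0 h and WT replicate 1 at 3 h, where the SD of log2 differences was 0.485, 0.472 and 0.446, against 0.248 to 0.372 in the others. Dendritic cell markers were expressed in all groups, with *Cd209a* alone at 0 in WT cells at 6 h, but the levels of cell type markers differed with genotype. The summed FPKM of the 17 measured dendritic cell markers was 1048 to 1516 in *TTP*-/- and 2045 to 2522 in WT cells at 0 h, and 10, 9, 8 and 12 of the 14 tested were lower in *TTP*-/- cells at the 4 times, with 1, 2 and 1 higher at 3, 6 and 9 h. The 16 neutrophil markers summed to 1274 to 2026 FPKM in *TTP*-/- and 211 to 294 FPKM in WT cells at 0 h (603 to 658 and 84.2 to 107 at 9 h), and 13, 14, 14 and 14 of 14 tested were higher in *TTP*-/- cells. The 13 macrophage and monocyte markers summed to 1100 to 1990 and 463 to 582 FPKM at 0 h (424 to 722 and 74.5 to 94.3 at 9 h), with 9, 2, 10 and 10 of 10 tested higher in *TTP*-/- cells. Markers of mast cells, basophils and eosinophils (60.6 to 89.8 FPKM in *TTP*-/- and 11.9 to 12.7 FPKM in WT cells at 0 h) and of B and plasma cells (56.3 to 90.1 and 5.80 to 8.27 FPKM) also had higher sums in *TTP*-/- cells. Of 8 tested genes of the mast cell, basophil and eosinophil list, 6 were higher at 0 h and 7 at each later time, although the mast cell gene *Tpsb2* was lower at 0 h (log2 fold change -1.68, adjusted p = 0.000333 from limma) and 3 h (-0.44, adjusted p = 0.0345). With voom on reads recovered from FPKM, *Cma1* of this list was lower at 3, 6 and 9 h (-2.99, -2.40 and -1.76, adjusted p 0.00206 to 0.00398). *Kit* was lower at 0 h (-0.43, adjusted p = 0.0187 from voom). *Kit* and *Cpa3* were higher at 3, 6 and 9 h (adjusted p 1.69e-05 to 0.00482 from voom). Markers of T and NK cells, stroma and endothelium summed to at most 2.07 FPKM in any library. These markers moved with genotype beside every comparison of *TTP*-/- with WT cells below, and their part in the results was not tested. In bulk RNA, fewer cells of a type and less RNA per cell cannot be told apart.

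*TTP*-/- cells and WT cells were compared at each time to ask which members differ without TTP. After LPS the 3 ligands were higher in *TTP*-/- cells at 3, 6 and 9 h, by 1.45 to 2.96 times in the ratio of mean FPKM. The signal transducer *Il6st* was lower in *TTP*-/- cells at 0 h (0.543 times the WT mean) and at 9 h (0.680 times). The receptor subunit *Il6ra* was 2.74 to 2.94 times the WT level at all 4 times, from before LPS onward. *Il6* itself showed overlapping groups at 0 h and its ratio was highest at 9 h.

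Deposited values are FPKM, reads per kilobase of gene span and per library size, and they were tested on log2(FPKM + 0.1) with limma at each time over genes averaging 0.5 FPKM or more in the 24 libraries, at an adjusted p of 0.05. On this scale the change of a low gene is understated. Of the 4 members that passed this filter, 1 was called at 0 h, lower, beside 15.5% of all genes tested (13.9% were called higher). At 3 h 3 were called higher, beside 11.3% of all genes (14.6% lower). At 6 h 3 were called higher, beside 10.4% (6.7% lower), and at 9 h 3 were called higher and 1 lower, beside 17.7% higher and 19.1% lower. The median log2 fold change of the 4 members was 0.18, 1.08, 0.84 and 0.64 at 0, 3, 6 and 9 h, against -0.04, -0.05, -0.06 and -0.05 over all genes tested. Leaving out the library that stood apart in each of the 0, 3 and 6 h comparisons gave the same counts. *Il6ra* did not pass the filter and was tested with voom in limma on reads recovered from FPKM, where 19.1%, 15.9%, 14.6% and 20.9% of 14125 genes were called higher at 0, 3, 6 and 9 h.

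**Figure D2:**
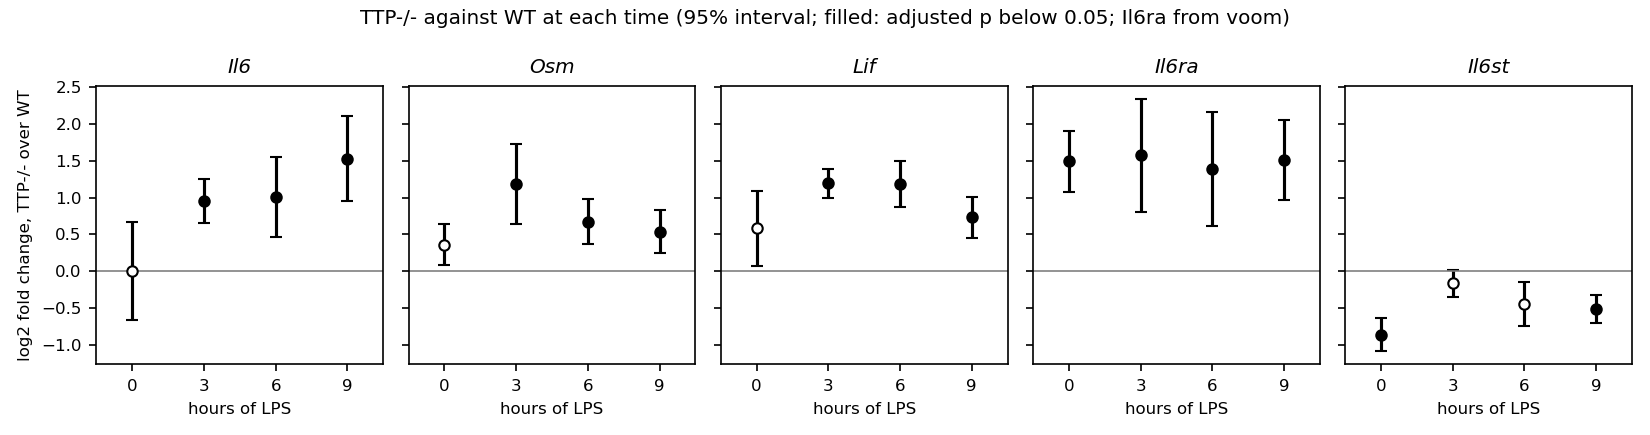
Log2 fold change of *TTP*-/- over WT cells for each member before LPS and 3, 6 and 9 h after it, with 95% confidence intervals; filled points have an adjusted p under 0.05. *Il6*, *Osm*, *Lif* and *Il6st* are from limma on log2(FPKM + 0.1) and *Il6ra* from voom on reads. The 3 ligands lie above 0 after LPS, *Il6ra* lies near 1.5 at all times and *Il6st* lies below 0.

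*Il6* encodes IL-6, the cytokine that drives the acute phase response. Before LPS the values were 2.41, 2.72 and 1.71 FPKM in *TTP*-/- libraries and 2.64, 1.46 and 2.89 FPKM in WT libraries. The groups overlapped, with a log2 fold change of 0.00 (95% interval -0.66 to 0.67). After 3 h of LPS the values were 106, 83.4 and 96.8 FPKM in *TTP*-/- libraries, against 46.3, 45.5 and 55.1 FPKM in WT libraries. Every *TTP*-/- library was above every WT library at 3, 6 and 9 h, as in 18.4%, 17% and 22.6% of all genes tested in that direction (3 h log2 fold change 0.96, SE 0.13, adjusted p = 0.00307 from limma). After 6 h they were 119, 98.2 and 93.5 FPKM in *TTP*-/- libraries, against 72.7, 42.5 and 43.6 FPKM in WT libraries (log2 fold change 1.01, SE 0.23, adjusted p = 0.0250). WT replicate 1, one of the libraries that stood apart, was the highest of its group. After 9 h they were 76.6, 129 and 72.6 FPKM in *TTP*-/- libraries, against 29.9, 25.8 and 38.3 FPKM in WT libraries (log2 fold change 1.53, SE 0.25, adjusted p = 0.00278). The WT level was lower at 9 h than at 3 and 6 h while the *TTP*-/- libraries ranged more widely than at any other time. The 6 h difference in *Il6* missed the threshold without any one of *TTP*-/- replicates 1, 2 and 3 or WT replicates 2 and 3 (adjusted p 0.0607 to 0.0838), with a log2 fold change between 0.87 and 1.26 over the 6 ways of leaving out 1 library.

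**Figure D3:**
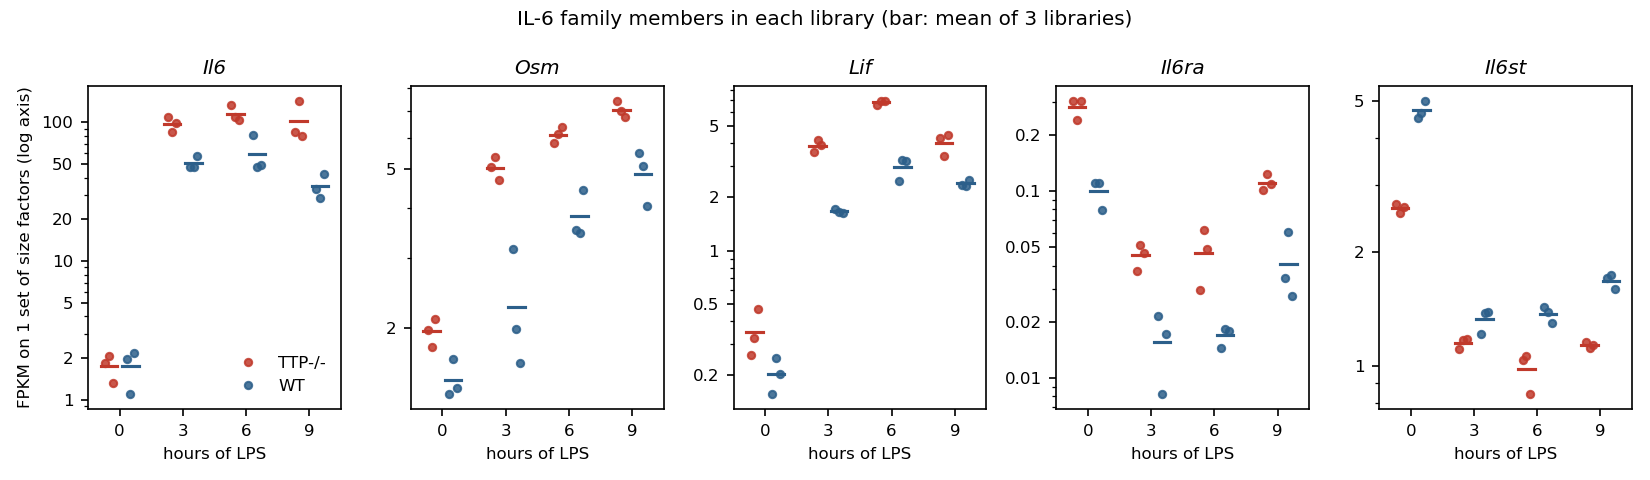
Level of each member in all 24 libraries, as FPKM on 1 set of size factors over the 4 times (log axis), with *TTP*-/- left of WT at each time and a bar at the mean of 3. *Il6* and *Lif* are more than 10 times higher at 6 h than at 0 h in both genotypes, *Il6st* and *Il6ra* are lower after LPS in both, and the genotypes of *Il6ra* are apart at every time.

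*Osm* encodes oncostatin M, which myeloid cells secrete and which acts on stromal, endothelial and liver cells among others. Before LPS the values were 2.6, 2.37 and 2.75 FPKM in *TTP*-/- libraries and 1.82, 2.23 and 1.89 FPKM in WT libraries. The groups did not overlap, as in 21% of all genes tested in that direction, but the difference was not called (log2 fold change 0.36, SE 0.12, adjusted p = 0.0605 from limma, and 0.0471 without WT replicate 2). After 3 h of LPS the values were 4.94, 5.2 and 4.57 FPKM in *TTP*-/- libraries, against 3.05, 1.90 and 1.56 FPKM in WT libraries (log2 fold change 1.19, SE 0.23, adjusted p = 0.0118). WT replicate 1 at 3 h, which stood apart, was again the highest of its group, and without it the log2 fold change was 1.45. After 6 h the *Osm* values were 5.18, 5.50 and 5.69 FPKM in *TTP*-/- libraries, against 3.18, 3.06 and 3.95 FPKM in WT libraries (log2 fold change 0.68, SE 0.13, adjusted p = 0.0120). After 9 h they were 6.71, 6.29 and 6.09 FPKM in *TTP*-/- libraries, against 4.91, 4.6 and 3.63 FPKM in WT libraries (log2 fold change 0.54, SE 0.12, adjusted p = 0.0133). All *TTP*-/- libraries stayed above all WT libraries at each time, as in 18.4%, 17% and 22.6% of all genes tested at 3, 6 and 9 h. The adjusted p rose to 0.0505 without WT replicate 2 at 3 h, to 0.0632 or 0.0560 without *TTP*-/- replicate 2 or 3 at 6 h, and to 0.0528 without *TTP*-/- replicate 1 at 9 h.

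*Lif* encodes leukemia inhibitory factor, known for keeping mouse embryonic stem cells undifferentiated and for its induction in inflammation. Before LPS the level was low, 0.340, 0.427 and 0.608 FPKM in *TTP*-/- libraries (130 to 239 reads) and 0.207, 0.331 and 0.269 FPKM in WT libraries (76 to 119 reads). The groups did not overlap, and the difference was not called on FPKM (log2 fold change 0.58, SE 0.22, adjusted p = 0.0883 from limma) but was with voom (0.78, adjusted p = 0.0476). After 3 h of LPS the values were 3.47, 4.08 and 3.79 FPKM in *TTP*-/- libraries, against 1.65, 1.56 and 1.56 FPKM in WT libraries. Both groups were tight and well apart (log2 fold change 1.20, SE 0.08, adjusted p = 0.000282). After 6 h they were 5.83, 6.20 and 6.21 FPKM in *TTP*-/- libraries, against 2.21, 2.84 and 2.84 FPKM in WT libraries (log2 fold change 1.19, SE 0.13, adjusted p = 0.000960). After 9 h they were 3.87, 3.05 and 4.03 FPKM in *TTP*-/- libraries, against 2.10, 2.08 and 2.24 FPKM in WT libraries (log2 fold change 0.73, SE 0.12, adjusted p = 0.00283). The groups stayed apart at each time, as in 21%, 18.4%, 17% and 22.6% of all genes tested in that direction at 0, 3, 6 and 9 h. The calls of *Lif* at 3, 6 and 9 h were kept whichever single library was left out.

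*Il6ra* encodes the IL-6 receptor subunit, which can be membrane-bound or shed as a soluble receptor. At 0 h it had 446, 339 and 456 reads in *TTP*-/- libraries (0.398, 0.316 and 0.396 FPKM), against 159, 155 and 100 reads in WT libraries (0.148, 0.147 and 0.106 FPKM). The *TTP*-/- libraries were all above the WT libraries, as at each later time (log2 fold change 1.5, SE 0.18, adjusted p = 0.000349 from voom). Of the genes that passed the FPKM filter, 21%, 18.4%, 17% and 22.6% lay apart in that direction at 0, 3, 6 and 9 h. After 3 h it had 37, 46 and 47 reads in *TTP*-/- libraries, against 19, 7 and 15 reads in WT libraries (log2 fold change 1.58, SE 0.34, adjusted p = 0.00719). After 6 h it had 26, 61 and 42 reads in *TTP*-/- libraries, against 13, 15 and 15 reads in WT libraries (log2 fold change 1.39, SE 0.35, adjusted p = 0.0147). These reads are few for a receptor gene, so the size of the difference at 3 and 6 h is loosely fixed. After 9 h it had 94, 100 and 108 reads in *TTP*-/- libraries, against 30, 49 and 23 reads in WT libraries (log2 fold change 1.51, SE 0.25, adjusted p = 0.000347). Without *TTP*-/- replicate 2 the 6 h difference missed the threshold (log2 fold change 1.15, adjusted p = 0.0586), and on log2(FPKM + 0.1) with no filter the 6 h difference was not called (adjusted p = 0.0808).

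*Il6st* encodes gp130, the chain that all 3 ligands use to signal. Before LPS the values were 3.5, 3.32 and 3.41 FPKM in *TTP*-/- libraries, against 6.01, 6.18 and 6.65 FPKM in WT libraries. The groups did not overlap, as in 24.1% of all genes tested in that direction, and *Il6st* was lower in *TTP*-/- cells (log2 fold change -0.86, SE 0.10, adjusted p = 0.00109 from limma). After 3 h of LPS the values were 1.08, 1.14 and 1.14 FPKM in *TTP*-/- libraries and 1.17, 1.31 and 1.33 FPKM in WT libraries. The groups did not overlap, as in 25.9% of all genes tested in that direction, and the difference was not called (log2 fold change -0.17, SE 0.08, adjusted p = 0.171). After 6 h they were 0.922, 0.952 and 0.751 FPKM in *TTP*-/- libraries and 1.29, 1.23 and 1.15 FPKM in WT libraries (log2 fold change -0.44, SE 0.12, adjusted p = 0.0518). The groups did not overlap, as in 20.1% of genes in that direction, and the 6 h difference was called with the replicate number as a block (adjusted p = 0.0200), with voom (0.0227) and in 1 fit of the 24 libraries (0.000204). After 9 h they were 1.05, 1.00 and 1.02 FPKM in *TTP*-/- libraries, against 1.53, 1.56 and 1.43 FPKM in WT libraries (log2 fold change -0.51, SE 0.08, adjusted p = 0.00220). The groups were again apart, as in 28.6% of genes in that direction.

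An exact permutation test of each member at each time gave p = 0.1, the smallest that 3 against 3 libraries allow, in every case but *Il6* at 0 h (p = 1). All calls above therefore rest on a spread estimated with the help of all genes. Wherever p was 0.1 the groups did not overlap, which was common among the genes that passed the FPKM filter. Depending on the time, 17% to 22.6% of those genes had every *TTP*-/- library above every WT library. The share with every *TTP*-/- library below was 20.1% to 28.6%. Whether the members differ from other genes in this was not tested.

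LPS was compared with 0 h within each genotype on FPKM put on 1 set of size factors, in 1 limma fit of the 24 libraries. Each genotype's 0 h libraries are shared by its 3 comparisons. In both genotypes the 3 ligands were higher and *Il6st* was lower at 3, 6 and 9 h than at 0 h. Of all genes, 31.7%, 35.6% and 37.2% were called higher and 22.4%, 24.6% and 24.5% lower at these times in *TTP*-/- cells, and 33.3%, 34.7% and 35.8% higher and 19.6%, 21.6% and 22% lower in WT cells. Between 3 and 6 h 14.5% were called higher and 10.5% lower in *TTP*-/- cells and 15.4% and 13.6% in WT cells, and between 6 and 9 h 8.05% and 9.63% in *TTP*-/- cells and 5.37% and 8.95% in WT cells. The scale matters to these contrasts, since scaling to library totals would shift the median gene by -0.41, -0.52 and -0.51 on the log2 scale in *TTP*-/- cells and by -0.46, -0.57 and -0.54 in WT cells.

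*Il6* averaged 1.74 ± 0.38, 98.2 ± 11.6, 116 ± 15.7 and 103 ± 35.3 FPKM at 0, 3, 6 and 9 h in *TTP*-/- cells (common scale, SD, n = 3). In WT cells it averaged 1.75 ± 0.58, 51.2 ± 5.6, 59.3 ± 18.6 and 34.9 ± 7.1 FPKM. Over 0 h these are 56.5, 66.7 and 59.3 times in *TTP*-/- cells and 29.3, 33.9 and 20 times in WT cells. Between 6 and 9 h the log2 change was -0.21 in *TTP*-/- cells (adjusted p = 0.629 from limma) and -0.74 in WT cells (adjusted p = 0.0644, or 0.0388 with voom). The difference between these changes was not called (0.52, 95% interval -0.25 to 1.30, adjusted p = 0.720).

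*Lif* averaged 0.350, 3.89, 6.80 and 4.05 FPKM at 0, 3, 6 and 9 h in *TTP*-/- cells and 0.202, 1.66, 2.96 and 2.39 FPKM in WT cells. Its level was higher at 6 than at 3 h by 0.79 on the log2 scale in each genotype (adjusted p = 0.000410 in *TTP*-/- and 0.000406 in WT cells, from limma). It was lower at 9 than at 6 h in *TTP*-/- cells (log2 change -0.74, adjusted p = 0.00146), and in WT cells the change was -0.29 (adjusted p = 0.204). The difference between the 2 declines was -0.46 (adjusted p = 0.441). In both genotypes the highest mean was that at 6 h.

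*Osm* averaged 1.97, 5.04, 6.10 and 7.06 FPKM at 0, 3, 6 and 9 h in *TTP*-/- cells and 1.49, 2.26, 3.81 and 4.88 FPKM in WT cells. In WT cells the first increase was small (0.53 on the log2 scale at 3 h, adjusted p = 0.0120 from limma) and a further one followed between 3 and 6 h (0.77, adjusted p = 0.00154). In *TTP*-/- cells 1.32 was reached by 3 h, and the change between 3 and 6 h was 0.27 (adjusted p = 0.261). The difference between the genotypes in this step was not called (-0.50, adjusted p = 0.743). The first increase in WT cells was not called without WT replicate 1 at 3 h (0.27, adjusted p = 0.103) and with library totals (adjusted p = 0.749).

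The receptors went the other way. *Il6st* averaged 2.6, 1.15, 0.978 and 1.14 FPKM at 0, 3, 6 and 9 h in *TTP*-/- cells and 4.72, 1.33, 1.37 and 1.68 FPKM in WT cells. Between 6 and 9 h it was higher again in WT cells (0.27, adjusted p = 0.0255 from limma) and changed by 0.20 in *TTP*-/- cells (adjusted p = 0.0838), and the difference between these changes was not called (-0.07, 95% interval -0.30 to 0.16, adjusted p = 0.912). The WT rise was lost when WT replicate 2 or 3 at 6 h or WT replicate 1 or 2 at 9 h was left out (adjusted p 0.0531 to 0.101). *Il6ra* averaged 0.283, 0.045, 0.047 and 0.111 FPKM in *TTP*-/- cells and 0.10, 0.016, 0.017 and 0.041 FPKM in WT cells. By voom it was lower at 3 h, with a log2 change of -2.63 in *TTP*-/- and -2.72 in WT cells, beside 28.7% and 26% of genes called lower. By voom it was also higher at 9 than at 6 h, by 1.28 in *TTP*-/- cells (adjusted p = 0.00151) and by 1.16 in WT cells (adjusted p = 0.0488), beside 8.08% and 5.01% of genes called higher.

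The effect of genotype was set against its own size at 0 h by an interaction term in the same fit. For *Il6* the effect was larger at 9 h than at 0 h by 1.5 on the log2 scale (95% interval 0.73 to 2.27, adjusted p = 0.0130 from limma), where 5.46% of genes had an effect called higher and 4.18% called lower. At 3 and 6 h its interaction was 0.91 (adjusted p = 0.209) and 0.98 (adjusted p = 0.123). For *Il6st* the effect was less negative after LPS than before, by 0.64 at 3 h (adjusted p = 0.00167, beside 2.4% of genes called higher and 2.18% lower) and by 0.38 at 6 h (adjusted p = 0.0416, beside 4.99% and 3.08%). After 9 h they were 0.31 (adjusted p = 0.0927). The *Il6st* call at 6 h was lost with the replicate block (adjusted p = 0.0513), with voom (0.0810), and without 1 library in 16 of 24 cases. For *Lif* the interaction was 0.62, 0.62 and 0.17 at 3, 6 and 9 h (adjusted p = 0.107, 0.0723 and 0.709) and for *Osm* 0.79, 0.29 and 0.15 (adjusted p = 0.0638, 0.590 and 0.777). Without WT replicate 1 at 3 h that of *Osm* at 3 h was 1.05 (adjusted p = 0.00171), and without *TTP*-/- replicate 3 at 0 h that of *Lif* was 0.80 at both 3 and 6 h (adjusted p = 0.0138 and 0.00804). Without WT replicate 1 at 6 h that of *Il6* at 6 h was 1.22 (adjusted p = 0.0430). None of these was called by voom, where that of *Lif* was 0.45 at 3 h and 0.44 at 6 h (adjusted p = 0.443 and 0.362). Over all ways of leaving out 1 library the interaction ranged from 0.59 to 1.05 for *Osm* at 3 h. It ranged from 0.80 to 1.27 for *Il6* at 6 h. For *Lif* it ranged from 0.47 to 0.80 at 3 h and from 0.48 to 0.80 at 6 h. For *Il6ra* it was 0.08, -0.10 and 0.02 by voom, with intervals of -0.80 to 0.96, -0.96 to 0.77 and -0.67 to 0.71, too wide to set the effects at different times equal.

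To compare levels between members, reads were divided by exon length in place of gene span. At 0 h *Il6st* was the highest member in both genotypes (10.8 FPKM of exon length in *TTP*-/- and 19.6 in WT cells), followed by *Il6* (4.87 and 4.90) and *Osm* (3.98 and 3.02), whose ranges overlapped. *Lif* (1.20 and 0.695) and *Il6ra* (1.43 and 0.508) were lowest, and their ranges overlapped in each genotype. At 3 h *Il6* was far above the rest, at 275 in *TTP*-/- and 144 in WT cells. *Lif* was next in *TTP*-/- cells (13.4, against *Osm* at 10.2), and in WT cells *Lif*, *Il6st* and *Osm* overlapped (5.71, 5.50 and 4.59). At 6 h the order was *Il6* (325 in *TTP*-/- and 166 in WT cells), *Lif* (23.4 and 10.2), *Osm* (12.4 and 7.73), *Il6st* (4.06 and 5.69) and *Il6ra* (0.238 and 0.0859), with *Lif* and *Osm* overlapping in WT cells. At 9 h *Il6* was at 289 in *TTP*-/- and 97.8 in WT cells, *Osm* (14.3 and 9.89) and *Lif* (13.9 and 8.20) overlapped, *Il6st* was at 4.71 and 6.95, and *Il6ra* was lowest at 0.563 and 0.206.

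**Figure D4:**
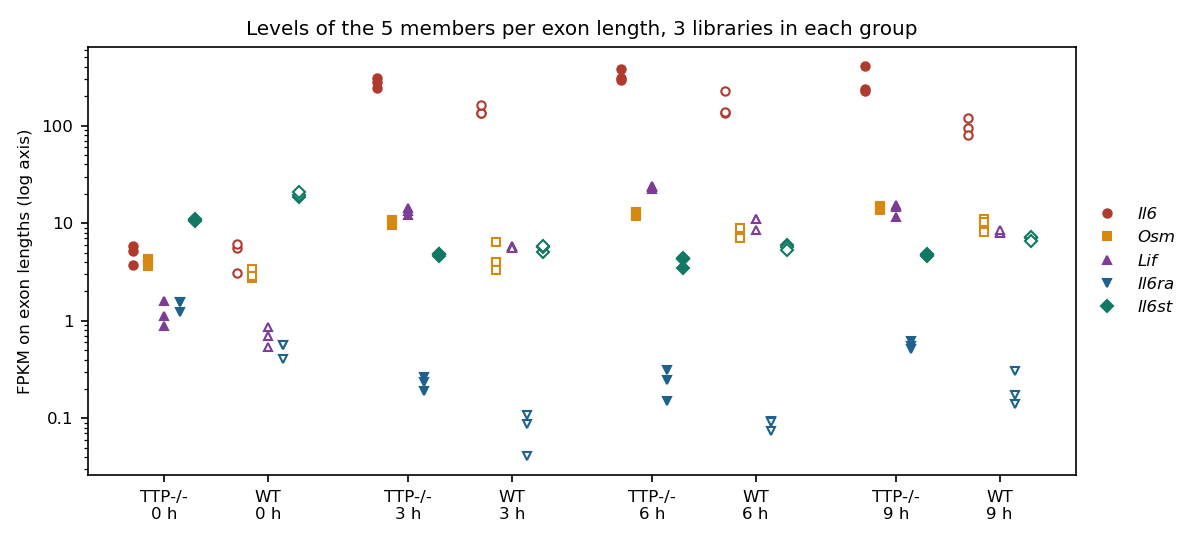
Level of the 5 members per exon length in each library (FPKM, log axis) at 0, 3, 6 and 9 h, filled for *TTP*-/- and open for WT cells. *Il6st* is the highest member at 0 h, *Il6* is the highest at 3, 6 and 9 h, and *Il6ra* is the lowest after LPS.

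Other ligands of the family were read beside the members from a list of 8, of which 7 have rows and 3 passed the filter. *Il27*, which encodes the p28 subunit of IL-27, was 0.251, 0.179 and 0.346 FPKM in *TTP*-/- libraries at 0 h, against 0.0413, 0.0421 and 0.0390 FPKM in WT libraries. At 9 h *Il27* was 17.2, 19.8 and 16.6 FPKM in *TTP*-/- libraries, against 1.01, 0.944 and 1.04 FPKM in WT libraries. Its groups were apart at all 4 times, as in 21%, 18.4%, 17% and 22.6% of all genes tested in that direction. *Il27* was higher by 1.32, 2.01 and 2.46 on the log2 scale before LPS, at 3 h and at 6 h (adjusted p = 0.00356, 0.00776 and 0.000477 from limma). Between 6 and 9 h the *Il27* level changed by 0.21 in *TTP*-/- cells (adjusted p = 0.632) and by -1.37 in WT cells (adjusted p = 0.00131). That difference was called (1.58, adjusted p = 0.0385, beside 0.695% of genes called higher and 0.311% lower).

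*Ebi3*, the partner subunit of p28 in IL-27, averaged 26.3, 131, 157 and 120 FPKM at 0, 3, 6 and 9 h in *TTP*-/- cells and 27.4, 153, 187 and 153 FPKM in WT cells, and was called only at 9 h, lower (log2 fold change -0.35, adjusted p = 0.0177 from limma). That *Ebi3* call was lost after rescaling to TPM (adjusted p = 0.172), in 1 fit of the 24 libraries (0.154), and without WT replicate 1 (0.0534) or *TTP*-/- replicate 3 (0.0537). *Clcf1*, a ligand that signals through gp130 and LIFR with the CNTF receptor, averaged 0.979, 13.6, 6.53 and 6.01 FPKM in *TTP*-/- cells and 1.44, 15.9, 4.91 and 2.82 FPKM in WT cells. *Clcf1* was called higher in *TTP*-/- cells at 9 h (log2 fold change 1.08, adjusted p = 0.00147). At 6 h its groups did not overlap, as in 17% of all genes tested in that direction, but the difference was not called (0.43, adjusted p = 0.170). Its effect at 9 h differed from that at 0 h by 1.56 (adjusted p = 0.00113), and the difference from 6 h was not called (0.66, adjusted p = 0.381). *Il11*, *Ctf1* and *Cntf* had 0 to 18 reads in any library. In the 3′ UTRs *Il27* and *Clcf1* each held 4 copies of TATTTAT, where 1.17% of genes tested have 4 or more, and *Ebi3* held none.

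Other receptor chains of the family were all too low for the FPKM filter, and 4 were tested by voom. *Lifr*, the chain that binds LIF and pairs with gp130, had 323 to 387 reads in *TTP*-/- and 500 to 546 reads in WT libraries at 0 h, and 40 to 63 and 100 to 129 reads at 9 h. It was lower in *TTP*-/- cells at every time (log2 fold change -0.65, -1.14, -1.02 and -1.18, adjusted p = 0.00378, 0.000975, 0.0145 and 0.000245), beside 14.7%, 15.4%, 8.43% and 17.7% of genes called lower. *Il11ra1*, the IL-11 receptor subunit, had 83 to 97 reads in *TTP*-/- and 19 to 27 reads in WT libraries at 9 h (log2 fold change 1.79, adjusted p = 5.39e-05), and was also higher at 0 and 6 h (0.71 and 1.01, adjusted p = 0.0379 and 0.0399). *Il31ra*, which pairs with the OSM receptor, had 1 to 15 reads in *TTP*-/- and 8 to 50 reads in WT libraries and was lower at all 4 times (adjusted p 0.00383 to 0.0376 from voom). *Il27ra* was lower at 0 h (log2 fold change -0.59, adjusted p = 0.0309) and had 8 to 44 reads in any library after LPS. *Osmr*, the chain for OSM, had 1 to 34 reads and was too low to test.

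Genes around the family were read from lists of transducers, sheddases, STAT3 response genes, regulators of *Il6* mRNA and transcription factors at *Il6*. Of 15 STAT3 response genes tested, 8, 5, 7 and 9 were higher and 4, 2, 1 and 1 lower in *TTP*-/- cells at 0, 3, 6 and 9 h, beside 13.9%, 11.3%, 10.4% and 17.7% higher and 15.5%, 14.6%, 6.7% and 19.1% lower over all genes. The median log2 fold change of the list was 0.95, 0.29, 0.64 and 0.74, against -0.04, -0.05, -0.06 and -0.05 over all genes. The acute phase gene *Saa3* was higher by 3.21, 3.25, 3.18 and 4.35 on the log2 scale, and *Hp*, haptoglobin, by 1.95, 2.21, 2.34 and 2.75. *Lcn2*, lipocalin 2, was higher by 2.21, 2.95, 2.99 and 2.69, and is also on the list of neutrophil markers, which were higher throughout. *Fos* was higher by 1.87, 0.52, 0.70 and 1.21, and its 3 h call was lost when any single library was left out (adjusted p 0.0543 to 0.107). *Il4ra*, a chain of the IL-4 receptor, named after its values were seen, was lower at all 4 times (-0.72, -0.44, -0.64 and -0.54), but each call was lost after rescaling to TPM (adjusted p 0.0513 to 0.084), as were those at 0, 3 and 6 h without single libraries (adjusted p 0.0524 to 0.102). Others on the list went down by voom, *Mcl1* at all 4 times (-0.55, -0.38, -0.43 and -0.29, adjusted p 0.00743 to 0.0473). *Pim1* and *Bcl6* were lower at 0 h (-0.54 and -0.53, adjusted p = 0.00409 and 0.0210 from voom). With limma 1 gene of the list, *Il4ra*, was called lower at 6 h and at 9 h. Several genes on this list respond to other signals as well, and no signalling through STAT3 was measured.

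Of 14 transducers and inhibitors tested, 2 were higher and 4 lower before LPS, the same numbers as at 9 h, with 4 lower at 3 h and 1 higher at 6 h. The counts of this list and of the next 3 are small, and none is read as standing apart from the shares over all genes given above. *Jak2*, a kinase bound to gp130, was lower at 0 h (log2 fold change -1.19), 3 h (-0.47, adjusted p = 0.0217 from limma) and 9 h (-0.32, adjusted p = 0.0338). Its calls at 3 and 9 h were each lost in 4 of 6 cases of leaving out 1 library. *Stat5a* was lower at 0 h (-1.04) and 3 h (-0.69), and at 6 h it was not called (-0.36, adjusted p = 0.111, or 0.0446 with the replicate block). *Socs3*, the inhibitor that binds gp130, was higher by 0.95 at 0 h and 0.99 at 9 h, the 0 h call lost without WT replicate 1 or 3 or *TTP*-/- replicate 1 (adjusted p 0.0528 to 0.0539 from limma), and at 6 h it was not called (0.64, adjusted p = 0.142, or 0.0203 with the replicate block). *Socs1* was higher by 1.85 at 6 h and 1.25 at 9 h, the 6 h call lost without *TTP*-/- replicate 2 or 3 (adjusted p = 0.0707 and 0.0750). Of 3 genes tested for shedding of the IL-6 receptor, 2 were higher at 0 h, 1 at 6 h and 2 at 9 h. The 0 h call of *Adam17* was lost when any of 4 of the 6 libraries was left out (adjusted p 0.0506 to 0.0559 from limma), and those of *Rhbdf2* without WT replicate 3 at 0 h (0.0587) and without *TTP*-/- replicate 2 or 3 at 6 h (0.0927 and 0.0833). *Adam17*, the main sheddase, was higher at 9 h by 0.88, and *Rhbdf2*, which escorts it to the cell surface, by 1.23.

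Of 11 regulators of *Il6* mRNA, 1 was higher and 3 were lower before LPS, 2 were higher and 2 lower at 3 h, 2 were higher at 6 h, and at 9 h 2 were higher and 1 was lower. *Zfp36l2*, a paralog of *Zfp36*, was higher at every time (log2 fold change 1.52, 0.98, 1.81 and 1.96), and *Zfp36l1*, another paralog, was lower at 0 h (-0.63). *Zc3h12c*, a relative of the RNase regnase-1, was lower at 0 h (-0.87) and higher at 3, 6 and 9 h (0.42, 0.63 and 0.70), but its calls after LPS were lost when single libraries were left out, in 5 of 6 cases at 3 h. Of 9 transcription factors at *Il6*, 2 were higher and 3 lower before LPS, 1 was lower at 3 h, 2 were higher at 6 h, and by 9 h 4 were higher with 2 lower. *Cebpb* was higher at 0, 6 and 9 h (1.43, 2.42 and 2.78) and at 3 h differed by 1.73 (not called with WT replicate 1, adjusted p = 0.000123 from limma without it). *Cebpd* was higher at 0, 6 and 9 h (1.55, 1.03 and 0.74), the 6 h call lost without *TTP*-/- replicate 2 (adjusted p = 0.0537). *Nfkb1* was lower at 0, 3 and 9 h (-1.03, -0.63 and -0.45) and *Rel* at 0 and 9 h (-1.34 and -0.69). Neither was called at 6 h (*Nfkb1* -0.31, adjusted p = 0.110, or 0.0448 with the replicate block, and *Rel* -0.40, adjusted p = 0.284, or 0.0244 with the block).

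**Figure D5:**
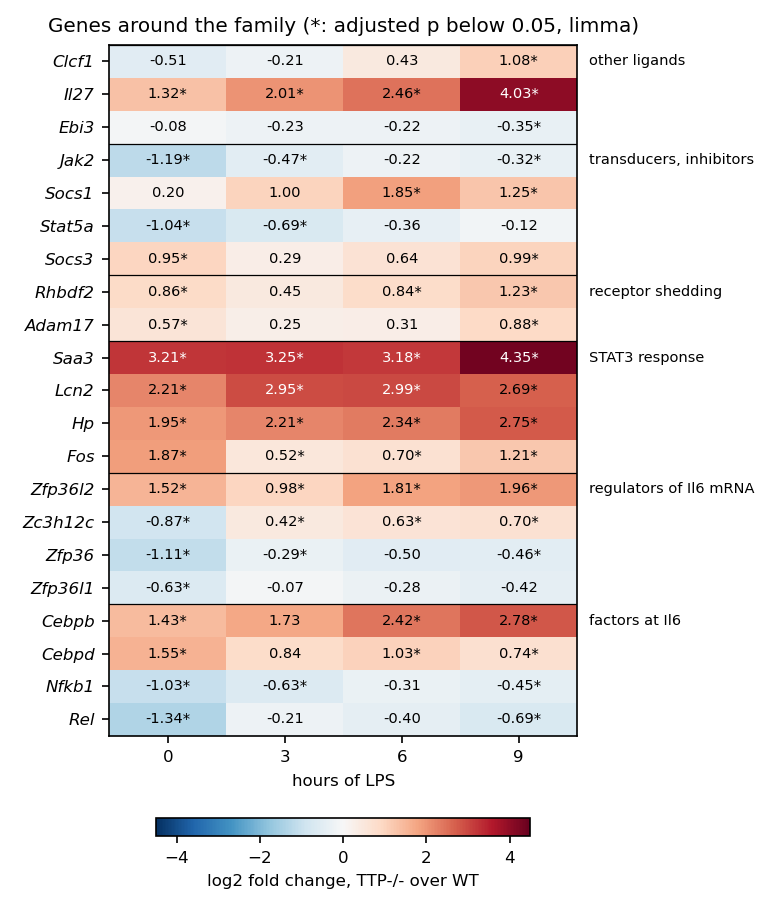
Log2 fold change of *TTP*-/- over WT cells (colour and number) for the other ligands *Clcf1*, *Il27* and *Ebi3* and the named genes of each pathway list at 0, 3, 6 and 9 h, with a star for an adjusted p under 0.05. *Saa3*, *Lcn2*, *Hp* and *Zfp36l2* are higher at every time, and *Jak2* is below 0 at every time.

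Over the 24 libraries, the patterns of *Il6* and *Lif* were alike (Pearson r of log2 common-scale FPKM 0.952), *Osm* correlated with *Lif* at 0.893 and with *Il6* at 0.801, and *Il6st* ran opposite to *Il6* (-0.934) and *Lif* (-0.943). *Il6ra* correlated with *Il6st* at 0.497 and with *Il6* at -0.684. Among the 2155 genes that averaged 5 FPKM or more, those most like *Il6* were *Ifit1*, *Cxcl10* and *Rsad2* (r 0.989, 0.988 and 0.986), and those most like *Lif* were *Igtp*, *Cmpk2* and *Slfn8* (0.986, 0.972 and 0.972). Those most like *Osm* were *Socs1*, *Plekhn1* and *B430306N03Rik* (0.917, 0.916 and 0.914), and those most like *Il6st* were *Vhl*, *Ceacam15* and *Rnf181* (0.896, 0.886 and 0.884). The 24 points fall into 8 groups that share time and genotype, and the correlations were not divided between LPS, genotype and library.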

How the data were processed

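RNA-Seq libraries (SENSE mRNA-Seq, single-end reads) of 24 BMDC cultures were analysed from the tables of the 4 times. Adapters were removed by the authors with cutadapt, STAR 2.5 was used for alignment (GRCm38), genotypes were tested with DESeq2, and the counting tool and annotation are not given in the sources used here. The FPKM deposited by the authors are divided by gene span, introns included, and scaled within each time. The tables deposited also hold results of the authors' own test, namely log2 fold changes with their errors, a score (the test statistic), p-values and a mean signal of normalised reads, which were not used.

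Reads were recovered from FPKM as whole multiples of what 1 read is worth (within 0.05 of a whole number), with the annotated span for 78.1% of IDs and a length solved from the values for the others, among them *Il6* and *Il6ra*; 3 IDs were not recovered. Depth was 19966787 to 25553953 reads, and intervals cover the spread between libraries.

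*TTP*-/- and WT cells were compared per time with limma 3.58.1 in R 4.3.3 (mean-variance trend) on log2(FPKM + 0.1), with Benjamini-Hochberg adjustment over genes averaging 0.5 FPKM or more (8350 kept). Interactions and LPS contrasts came from 1 fit of the 24 libraries on FPKM with 1 set of median-of-ratios size factors (0.822 to 1.52). The filter set in the design left out *Il6ra*, which was tested with voom in limma (genes averaging 10 reads or more). Interactions of 6 with 3 h and of 9 with 6 h, and for *Il6ra* voom with the block and without single libraries, were added after the data were seen. The steps were tested on simulated reads. The 3′ UTR was the longest among principal coding transcripts.

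Named genes were all members, other family ligands and receptors with a value (1 listed ligand is not reported here), up to 4 genes per pathway list called at most times, and the 3 genes most correlated with each member that passed the filter. *Il4ra*, *Tpsb2*, *Mcl1*, *Pim1*, *Bcl6*, *Cma1*, *Kit* and *Cpa3* were named after their values were seen. Members and lists were chosen with earlier results of these data known. The alternatives tried were other pseudocounts (1 and 0.01) and filters (none, 5 FPKM), TPM, exon lengths, voom, library totals, a replicate block and leaving out each library. Of 12 pairs with the same replicate number, 5 deviated together with a correlation above 0.1 (range -0.58 to 0.50), among them all 3 at 6 h (0.504, 0.217 and 0.499). Block values are given beside 6 h calls that change with them. The highest correlation of any pair was between different numbers, *TTP*-/- replicate 3 and WT replicate 2 at 0 h (0.707). A block by replicate number does not group these 2 libraries.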

Additional observations from a re-analysis of the deposited data

Results flagged for a closer look

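Of the members, 3 results stood out because the effect of genotype differed between times by a test of the difference itself, the interaction term of the 24-library limma fit. The *TTP*-/- effect on *Il6* was higher at 9 h than at 0 h by 1.5 on the log2 scale, with every *TTP*-/- library above every WT library at 9 h and overlapping groups at 0 h. The *TTP*-/- effect on *Il6st* was less negative at 3 h than at 0 h by 0.64, and at 6 h than at 0 h by 0.38 (a call lost with voom, with the replicate block and without 1 library in 16 of 24 cases), with every *TTP*-/- library below every WT library at all of these times.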

How the results depend on the processing

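Of 76 results for single members, 58 kept their side of the threshold under every alternative, and over 1908 alternatives 1830 kept it, 53 lost a call and 25 gained one. For LPS contrasts and interactions this counts leaving out each of the 24 libraries in turn. A library outside the contrast leaves the log2 change as it was and alters only the spread, so that agreement was partly fixed in advance. For the 88 results of other named genes, 1180 of 1300 alternatives kept the side, 85 lost and 35 gained a call. No called value changed direction, and values not called changed sign in 20 alternatives for 6 results of the members and in 6 alternatives for 3 results of the other genes. Rescaling to TPM shifted the median gene between genotypes by 0.12, 0.09, 0.13 and 0.14 on the log2 scale at 0, 3, 6 and 9 h. The number of members called higher in *TTP*-/- cells at 0 h (0 with limma, or 2, *Osm* and *Lif*, at an unadjusted p under 0.05) was 1 with no filter, with exon lengths and in 1 fit of the 24 libraries, and 2 with voom (*Lif* and *Il6ra*). A filter at 5 FPKM tests *Il6* alone of the 5, and left 1 called higher at 3, 6 and 9 h and 0 called lower at 0 and 9 h. The number called lower at 6 h was 1 (*Il6st*) with exon lengths, voom, 1 fit of the 24 libraries and the replicate block. The number with a larger effect at 3 h than at 0 h (1) was 3 with a pseudocount of 1 and 2 with FPKM as deposited. At 6 h (1) it was 2 with a pseudocount of 1 and 0 with voom or the replicate block. At 9 h (1) it was 3 with a pseudocount of 1. *Lif* was among those added at each time, and its 0 h values lie below 1 FPKM, where that pseudocount understates its change. By voom its interaction was 0.45, 0.44 and -0.02 at 3, 6 and 9 h and was not called. With voom, which tests *Il6ra* too, 2 members were lower after LPS at each time in each genotype in place of 1, 1 was higher at 9 than at 6 h in *TTP*-/- cells in place of 0, and 2 were higher and 1 lower in WT cells in place of 1 and 0. The 1 member lower at 6 than at 3 h in *TTP*-/- cells became 0 with a pseudocount of 1, voom or the replicate block, and a pseudocount of 1 gave 1 member lower at 9 than at 6 h in WT cells. Leaving out single libraries gave 0 to 1 members higher at 0 h, 1 to 3 at 6 h, and for larger effects than at 0 h 1 to 2 at 3 h, 0 to 2 at 6 h and 1 to 2 at 9 h, with 0 to 1 lower at 6 than at 3 h in *TTP*-/- cells and 0 to 1 higher and 0 to 1 lower at 9 than at 6 h in WT cells. The replicate block left the calls of *Il6ra* at all 4 times (adjusted p 0.000399 to 0.0267 from voom). Depth limits *Il6ra* at 3 and 6 h, where WT libraries had 7 to 19 reads. Causes were not tested.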
